A study of Mus musculus with 2 samples.

Results

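The genes that make, destroy and sense retinoic acid were examined for accessible chromatin in the developing mouse face. The set held 10 of the 21670 protein-coding genes on chromosomes 1 to 19 and X, chosen by name: the synthesis enzymes Rdh10, Aldh1a1, Aldh1a2 and Aldh1a3, the breakdown enzymes Cyp26a1, Cyp26b1 and Cyp26c1, and the receptors Rara, Rarb and Rarg. All 10 had peaks in both libraries: 343 of the 209299 peaks of replicate 1 and 337 of the 219061 of replicate 2 lay nearest to a start site of one of them.

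In DNase-seq, nuclei are treated with the enzyme DNase I, which cuts DNA where it is not wrapped up, so that promoters and enhancers in use stand out. The tissue was the embryonic facial prominence, the set of outgrowths that build the face, from healthy B6NCrl embryos of both sexes, pooled, at 11.5 days. The series has 1 group of 2 libraries, biological replicates 1 and 2, from separate biosamples, so there was no comparison between conditions and no test was run. The labels give no genotype other than the strain and no treatment.

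Retinoic acid is a small signalling molecule made from vitamin A. RDH10 oxidises retinol to retinal, the ALDH1A enzymes oxidise retinal to retinoic acid, and the CYP26 enzymes inactivate it, so that neighbouring tissues can hold very different amounts. The receptors RARα, RARβ and RARγ bind DNA as partners of RXR at paired half-sites, and in the face the balance of supply and removal is known to shape the frontonasal region, the eye and the palate. Several genes of the pathway carry such paired sites in their own promoters, the textbook case being the downstream promoter of Rarb.

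A peak is a 150 bp element called by the authors in 1 library, and its strength is the value they deposited for it. Because the scale of strength against depth is unknown, and the depth of either library is unknown too, each strength is given with its rank percentile among the peaks of its own library. Peaks centred within 1 kb of a coding start site are promoter peaks, others are distal, and an element is shared when 75 bp or more of it is covered by an element of the other library. A hotspot is a wider enriched region with a deposited −log10 q value that stops at 100. Each element was assigned to the nearest coding start site, which need not be the gene it acts on. A tissue map cannot tell apart a site open weakly in many cells from one open fully in few.

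Marker lists of the cell types that the tissue could hold were checked at their promoters, which does not measure the share of each cell type. In the list for facial neural crest mesenchyme 8 of 9 promoters carried a shared peak, in that for neural tissue 6 of 6 and in that for facial ectoderm 4 of 8, with Krt5 and Krt14 lacking a promoter peak in either library. Endothelium had 1 of 5, erythroid cells 0 of 6 and macrophages 0 of 4, beside 61.6% of all protein-coding genes. Counting each library by itself, the endothelial list had a promoter peak at 1 of 5 genes in replicate 1 and at 5 of 5 in replicate 2, with a median of 9 shared distal peaks. The share of each of these tissues in the results below was not tested.

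Of the 10 genes, 8 had a shared promoter peak, beside 61.6% of all protein-coding genes, and 10 had a shared distal peak, beside 61.8%. Together they had 27 shared promoter peaks, of which the receptors held 13, the breakdown enzymes 10 and the synthesis enzymes 4. Each coding start site adds a promoter window, and the genes differ in how many they have. Cyp26b1, Rara and Rarg have 5, Aldh1a3 and Rarb 4, Aldh1a1 3 and the other genes 1. The 94 shared distal peaks of the 10 genes fell 41 to the breakdown enzymes, 28 to the receptors and 25 to the synthesis enzymes. The median was 6 shared distal peaks per gene, against 1 over all genes. The genes without a shared promoter peak were Aldh1a1 and Aldh1a3.

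**Figure D1:**
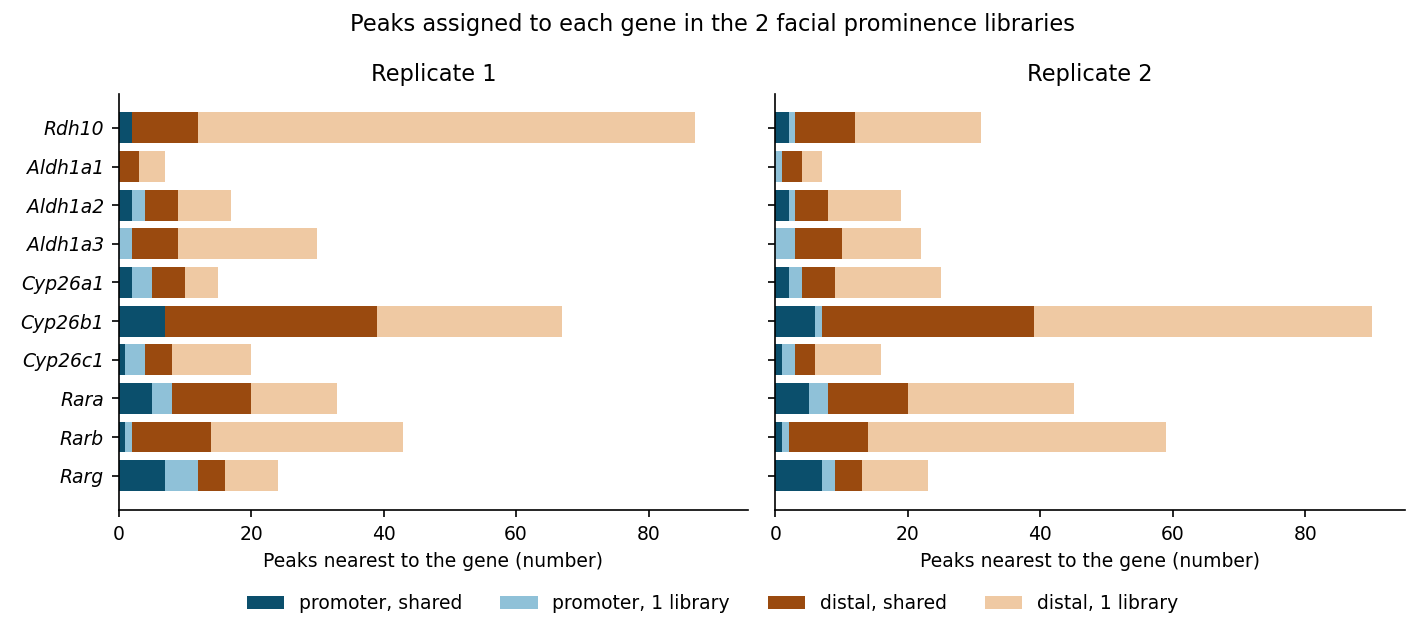
Number of peaks (x axis) nearest to each gene (y axis) in replicate 1 (left) and replicate 2 (right), split by colour into promoter and distal peaks found in both libraries or in 1. Cyp26b1 has 32 shared distal peaks in each library, and Rdh10 has 85 distal peaks in replicate 1 against 28 in replicate 2.

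The sequence around these genes was searched for direct repeats of the receptor half-site with a spacer of 5 bases, called DR5. The half-sites searched were the consensus AGGTCA, the variant AGTTCA, a further variant GGGTCA and the last variant GGTTCA, in the same direction, on both strands. The stretches of genome nearest to the 10 genes, 2279 kb in all, held 18 DR5 pairs, and those in a hotspot of at least 1 library, with 1 upstream pair of Cyp26a1 for comparison, are printed from the strand that carries the repeat, half-sites in capitals, from GRCm38.
Rarb, chr14:16575513-16575529, minus strand, in the 5′ untranslated part of the downstream-promoter transcript: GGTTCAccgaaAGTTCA
Cyp26a1, chr19:37697776-37697792, minus strand, ending 6 bases before the start site: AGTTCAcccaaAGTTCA
Cyp26a1, chr19:37695909-37695925, plus strand, 1.88 kb upstream: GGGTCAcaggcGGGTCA
Cyp26a1, chr19:37789468-37789484, plus strand, 91.7 kb downstream: GGGTCAggtaaAGTTCA
Rara, chr11:98960008-98960024, plus strand, 396 bp upstream of the start at 98960412: AGTTCAgcaagAGTTCA
Rarb, chr14:16999927-16999943, minus strand, 181 kb upstream: AGTTCAggtaaGGGTCA
Rarb, chr14:16999951-16999967, plus strand, 181 kb upstream: GGTTCAaccttGGTTCA
A match describes letters and is not a measured binding site. The Rarb pair near the start, the Cyp26a1 pair near the start and the upstream Cyp26a1 pair are among the places where retinoic acid response elements are known from textbook work on these genes.

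Of the 18 DR5 pairs, 2 lay inside a hotspot of both libraries, where 2.09% of the 8941 DR5 pairs of the genome did so. Inside a hotspot of either library lay 6, beside 6.51% genome-wide. The Rarb pair sat in hotspots at the ceiling of 100 in both libraries, 6 bases outside the edge of the strongest Rarb peak. The Cyp26a1 pair at the start site was in a hotspot of replicate 2 at the ceiling, while the nearest hotspot of replicate 1 began 16 bases after the start site. It was 63 bases from the nearest peak of replicate 1 and 43 from that of replicate 2. The upstream Cyp26a1 pair was in no peak, and a hotspot of replicate 2 began within it.

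**Figure D2:**
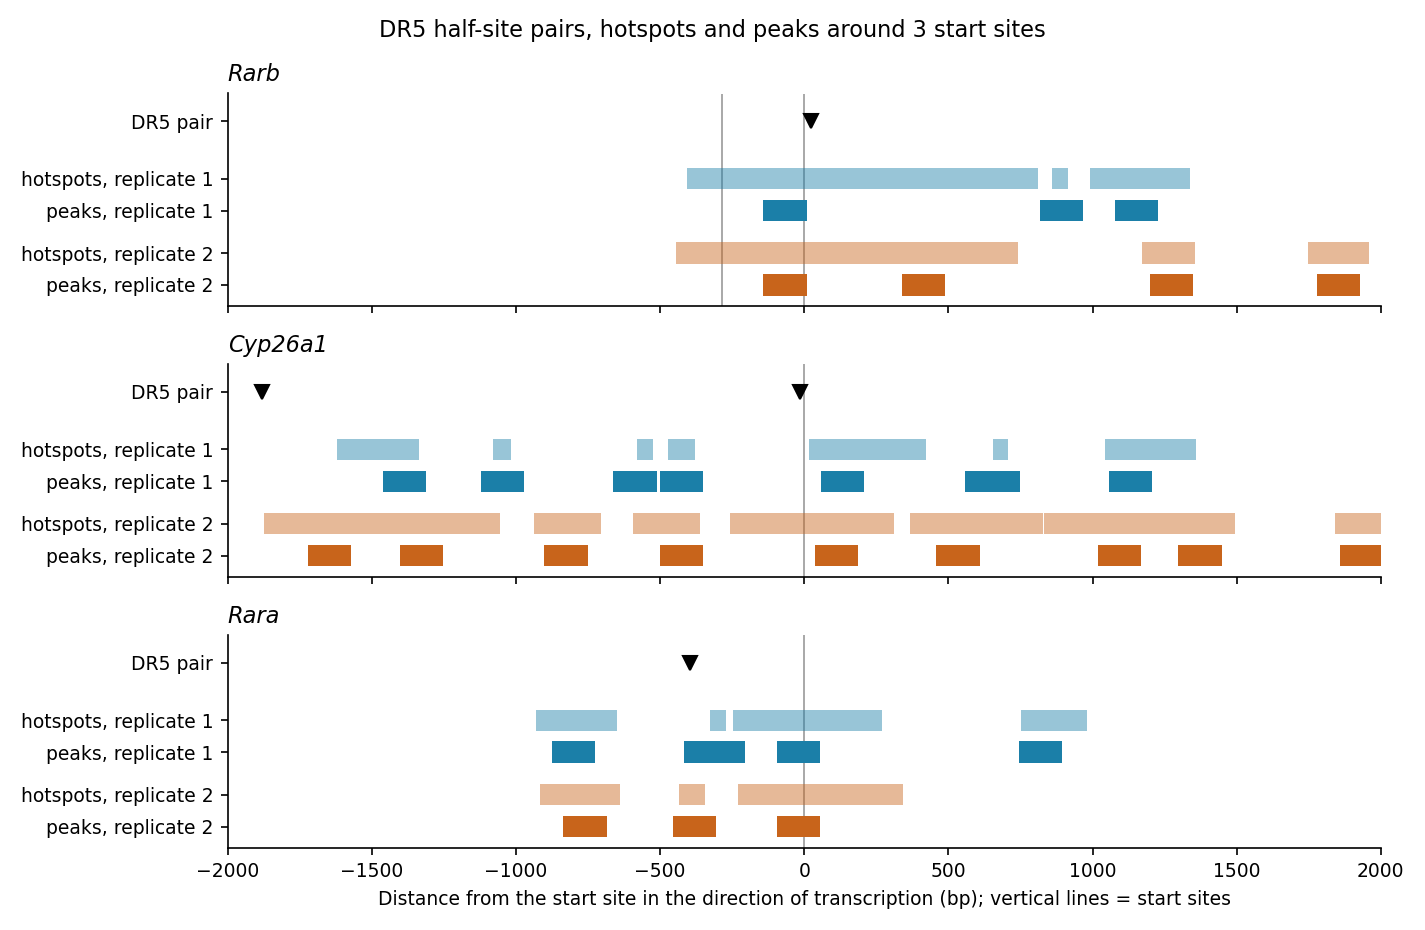
Hotspots (pale bars) and peaks (solid bars) of replicate 1 (blue) and replicate 2 (orange) against distance in bp from the start site (x axis) for the downstream promoter of Rarb, for Cyp26a1 and for the downstream promoter of Rara. Triangles mark DR5 pairs and vertical lines annotated start sites. The Rarb pair falls inside a hotspot of both libraries and the pair at the Cyp26a1 start inside a hotspot of replicate 2.

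A DR5 pair inside a shared peak was found at Rara and Cyp26a1. This was 1 of 27 shared promoter peaks of the 10 genes and 1 of 94 shared distal peaks, against 0.0332% of all 24079 shared promoter peaks and 0.142% of all 61871 shared distal peaks. Neither a DR2 nor a DR1 pair, with spacers of 2 and 1, was in any shared peak of the 10 genes. The Rarb peak 181 kb upstream held 2 DR5 pairs on opposite strands, was called in replicate 2 at strength 30 (percentile 26.6), and was chosen for mention after its content was seen. The 3 peaks are given whole, on the plus strand, with the half-sites in capitals.
Rara, chr11:98959996-98960145: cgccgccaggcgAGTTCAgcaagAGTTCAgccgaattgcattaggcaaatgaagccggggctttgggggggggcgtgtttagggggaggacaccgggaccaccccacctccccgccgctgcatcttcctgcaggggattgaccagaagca
Cyp26a1, chr19:37789436-37789585: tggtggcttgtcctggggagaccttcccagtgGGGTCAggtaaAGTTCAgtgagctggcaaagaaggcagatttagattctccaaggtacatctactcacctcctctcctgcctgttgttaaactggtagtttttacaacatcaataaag
Rarb, chr14:16999836-16999985: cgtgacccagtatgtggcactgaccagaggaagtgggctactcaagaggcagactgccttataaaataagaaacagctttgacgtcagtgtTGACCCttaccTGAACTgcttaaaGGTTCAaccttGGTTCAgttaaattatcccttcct
None was among the strong peaks of its gene: the Rara element had strength 26 in replicate 1 and 61 in replicate 2 (percentiles 68.8 and 71.4), and the Cyp26a1 element 16 and 40 (percentiles 49.3 and 47.3).

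Among the synthesis enzymes, Rdh10 and Aldh1a2 had open promoters in both libraries. Rdh10 (chr1:16105774-16133734, plus strand), the retinol dehydrogenase that sets the supply of retinal in embryos, had 2 shared promoter peaks. The peak at chr1:16105216-16105365, 483 bp before the start, had strength 65 in replicate 1 and 111 in replicate 2, at percentiles 92.7 and 94.1. The peak over the start, at chr1:16105716-16105865, had 68 and 95 (percentiles 93.4 and 89.8). Over all shared promoter peaks the median percentiles were 91.1 and 91.4. Both Rdh10 peaks lay inside a hotspot of 2678 bp in replicate 1 and 2883 bp in replicate 2. In both libraries that hotspot also covered the coding start of the upstream neighbour Rpl7, so it cannot be given to Rdh10 alone.

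The coding start of Rpl7, a ribosomal protein gene, lies 1.11 kb upstream of Rdh10, so every Rdh10 distal peak was downstream. The 10 shared distal peaks, 3 of them within 100 kb, lay 47.7 to 199 kb away, and 6 of them stood within Stau2, the next gene. The strongest, at chr1:16228316-16228465 in intergenic sequence, had strength 40 and 85 (percentiles 82.1 and 85.8). The next, at 134.7 kb in a Stau2 intron, had 33 and 85. The third, at 199 kb in another Stau2 intron, had 32 and 58. Whether these elements act on Rdh10 or on Stau2 cannot be told from proximity.

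Rdh10 was also the gene of the 10 at which the libraries differed most in number of peaks. Replicate 1 had 85 distal peaks and replicate 2 had 28, a ratio of 3.04 against a median of 0.815 over the 4833 genes with 20 or more distal peaks in the libraries together. The ratio was higher than that of 91.4% of these genes. The excess sat in the stretch from 20 to 70 kb downstream, picked after the values were seen, where replicate 1 had 67 peaks and replicate 2 had 3. The 67 peaks had strengths from 2 to 12 with a median of 4, none above percentile 39.2, and 1 was shared. The 3 peaks of replicate 2 there had strengths from 25 to 36. Outside the stretch the distal counts were 18 and 25, with 9 shared in the replicate 1 view. Of 42751 fixed bins of 50 kb with a peak, 17 had at least 67 replicate 1 peaks with 3 or fewer in replicate 2. The stretch was placed by its count and the bins were not, so the 17 may understate how many stretches are alike.

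**Figure D3:**
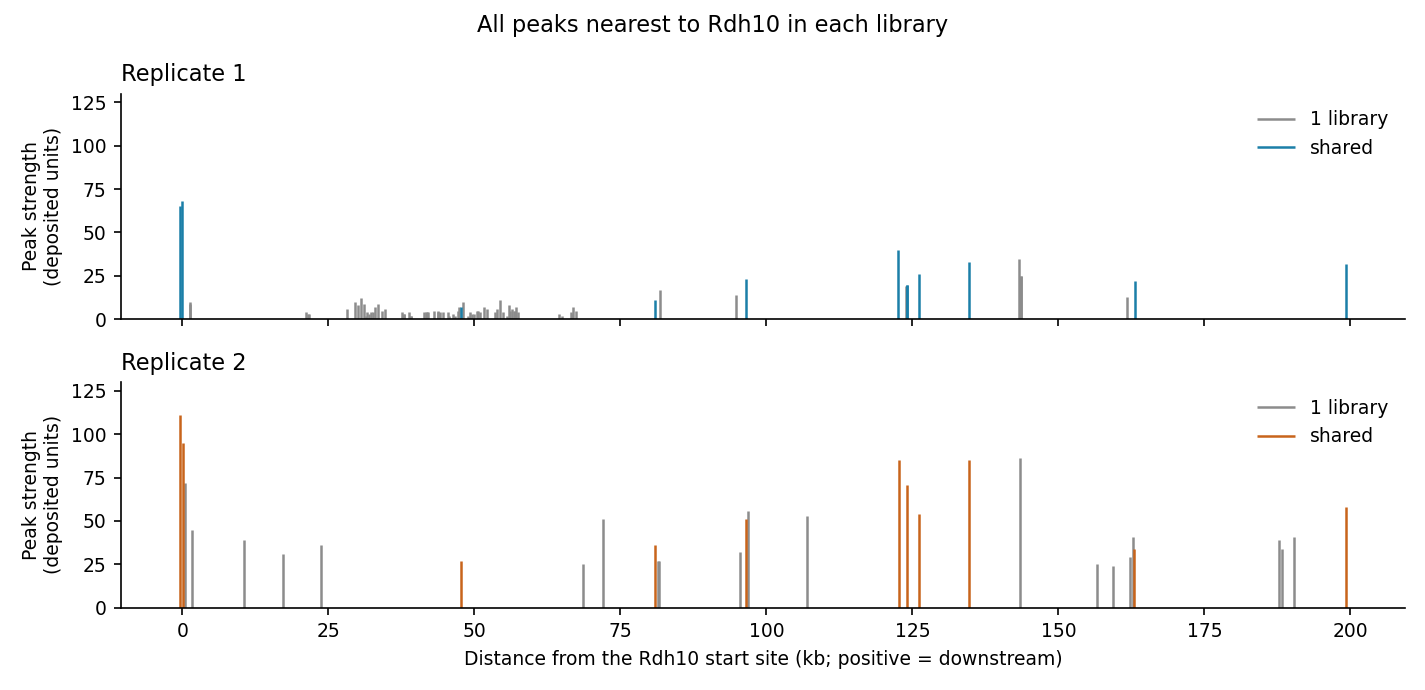
Strength (y axis, deposited units) of every peak nearest to Rdh10 against distance from its start site in kb (x axis), in replicate 1 (top) and replicate 2 (bottom), with shared peaks in colour and peaks of 1 library in grey. The 67 weak peaks of replicate 1 between 20 and 70 kb have strengths of 12 or less.

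Aldh1a2 (chr9:71215789-71296243, plus strand), the main retinoic acid producer of the early embryo trunk, had 2 shared promoter peaks at identical positions in both libraries. The stronger, at chr9:71215276-71215425 and 438 bp before the start, had strength 60 and 86 (percentiles 91.4 and 86.3). The peak over the start had 33 and 61. Its hotspot extended into the gene and was 3194 bp wide in replicate 1 and 3033 bp in replicate 2. Of its 5 shared distal peaks, the strongest lay farthest away, at 122 kb downstream, with 43 and 93 (percentiles 84.0 and 89.1), and a neighbour at 111 kb had 24 and 82. The third by rank lay 4.72 kb upstream with 27 and 52.

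Aldh1a3 (chr7:66390890-66427517, minus strand), the retinoic acid producer of the ventral eye and nasal epithelium, had no promoter peak that met the 75 bp rule. Its replicate 1 peak at chr7:66427376-66427525 had strength 40 (percentile 82.1) and its replicate 2 peak at chr7:66427456-66427605 had 68 (percentile 76.5), and they overlapped by 70 bp. Both libraries therefore had a peak over the start, and the gene counts as open there when any overlap is accepted. Its strongest shared distal peaks ranked above these promoter peaks. The element at chr7:66450096-66450245, 22.7 kb upstream in intergenic sequence, had 63 and 106, at percentiles 92.2 and 93.0. A neighbour 23.0 kb upstream had 45 and 80 and another at 24.6 kb had 31 and 87, so that 3 of the 7 shared distal peaks of the gene lay close together.

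Aldh1a1 (chr19:20492715-20643465, plus strand), the enzyme of the dorsal eye, had the fewest peaks of the 10 genes. There were 7 peaks in each library and 3 shared distal ones. No peak lay within 1 kb of its upstream start sites in either library, and the downstream start at 20601961 had a peak in replicate 2 only, at strength 42 (percentile 50.5). The strongest shared element, 43.0 kb upstream, had 34 and 53 (percentiles 77.5 and 64.3). A coding-exon element 32.5 kb from the downstream start had 19 and 70, and an intronic one had 18 and 35.

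The breakdown enzymes were dominated by Cyp26b1 (chr6:84571414-84593908, minus strand), the enzyme that keeps retinoic acid low in the limb, hindbrain, gonad and face. It had 7 shared promoter peaks and 32 shared distal peaks, a distal count higher than that of 99.6% of protein-coding genes. Within 100 kb of a start site the distal count was 14, with only the 50000 strongest peaks kept per library 9, and at 90% overlap 7. The promoter count was 4 under the last 2 of these settings and with a window of 500 bp, and 1 by hotspots, which join neighbouring peaks. The strongest promoter peak, at chr6:84588996-84589145 in an intron of the longer transcripts, had strength 70 and 117 (percentiles 93.8 and 95.3). Around it the downstream start sites lay in a hotspot of 2262 bp in replicate 1 and 6092 bp in replicate 2, where it was the widest hotspot of the 10 genes. The upstream start sites were quieter: their 1 promoter peak in replicate 1 had strength 28, and the 1 in replicate 2 had 31.

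The strongest distal elements of Cyp26b1 stood in its own introns. The peak at chr6:84583456-84583605, 4.15 kb downstream of the nearest start, had strength 73 and 122 (percentiles 94.4 and 96.2). The peak at chr6:84590396-84590545 had 80 and 109 (percentiles 95.5 and 93.6). Far from the gene, 18 of the 32 lay beyond 100 kb, and 11 lay in introns of Exoc6b, the upstream neighbour. Of the far ones the strongest, at chr6:84407916-84408065 and 180 kb downstream in intergenic sequence, had 61 and 95 (percentiles 91.7 and 89.8).

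Cyp26a1 and Cyp26c1, which are neighbours with start sites 12.2 kb apart on chromosome 19, had shared promoter peaks of unlike strength. Cyp26a1 (chr19:37697798-37701536, plus strand), the enzyme most directly induced by retinoic acid, had 2 shared promoter peaks. The one just inside the gene had strength 44 and 88 (percentiles 84.6 and 87.1), and the one 427 bp upstream had 31 and 36. Cyp26c1 (chr19:37685581-37693398, plus strand), an enzyme of the hindbrain and pharyngeal region, had 1, weak in both libraries at strength 14 and 40 (percentiles 44.3 and 47.3). Its strongest promoter peaks, shared or not, had 30 in replicate 1 (percentile 73.6) and 49 in replicate 2 (percentile 60.0). That of replicate 1 missed the rule, with an overlap of 70 bp. The Cyp26c1 start lay in a hotspot at the ceiling in replicate 1 only, and the Cyp26a1 start in replicate 2 only. The strongest distal element assigned to Cyp26a1, at chr19:37693036-37693185, had 62 and 86 and lay in a coding exon of Cyp26c1, so that its nearest start site and the gene it lies in are not the same. Of the other elements assigned to Cyp26a1, one 6.33 kb downstream had 52 and 73 and one in its coding sequence had 45 and 63. In Cyp26c1 itself a coding-exon element had 50 and 80, another had 42 and 78, and 2 overlapping intronic peaks of replicate 1 matched the same peak of replicate 2, at 23 and 31.

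**Figure D4:**
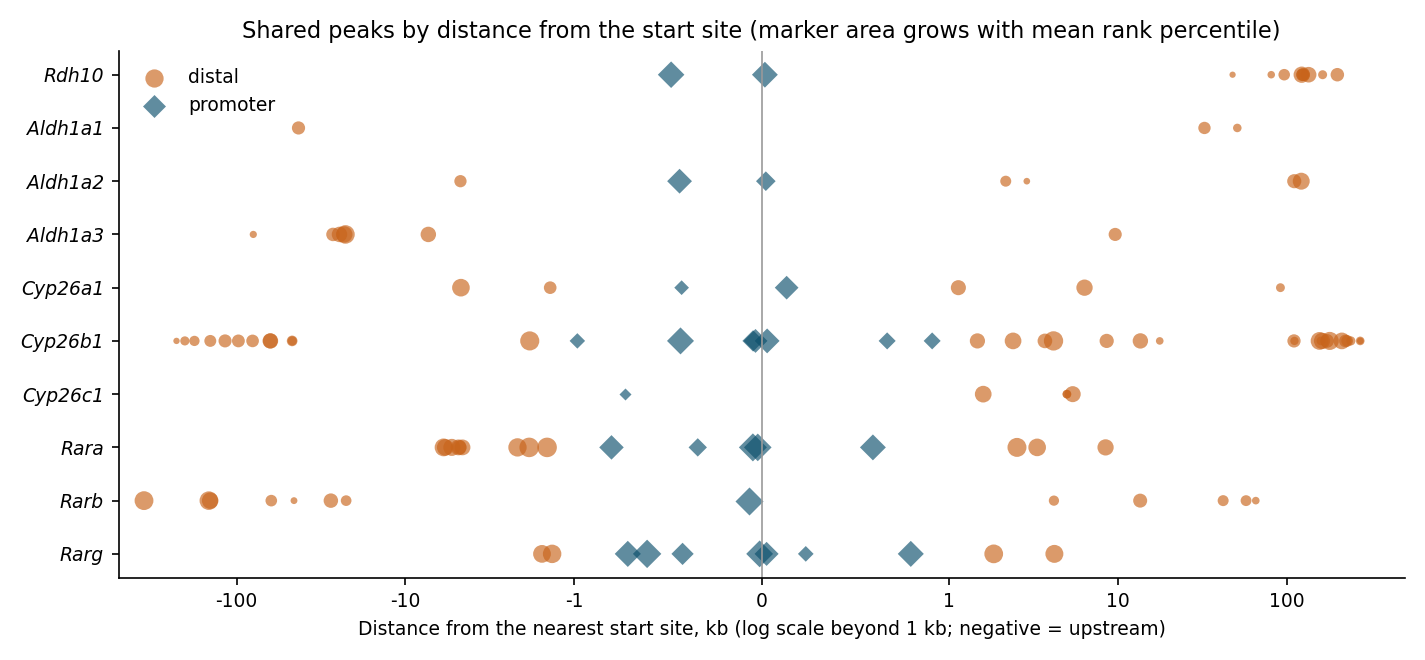
Position of each shared peak relative to the nearest start site of its gene in kb (x axis, linear to 1 kb and logarithmic beyond), with promoter peaks as diamonds and distal peaks as circles, larger for a higher mean rank percentile. Cyp26b1 and Rarb reach beyond 200 kb, while all shared distal peaks of Rarg, Rara and Cyp26c1 lie within 10 kb.

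By the strongest peak of each gene, the receptors led the set at promoters, while the median over promoter peaks of Rdh10, at percentiles 93.1 and 91.9, was above that of Rarg in replicate 1 (90.7). Rara (chr11:98927818-98974942, plus strand), the most broadly expressed receptor, has separate promoters for its isoforms. The start at 98937698 had a peak of strength 84 and 132 (percentiles 96.1 and 98.2), and the downstream start at 98960412, which makes the retinoic acid-inducible isoform, had one of 83 and 123 (percentiles 96.0 and 96.4). The most upstream start, at 98927818, had no promoter peak in replicate 1 but 3 in replicate 2, the strongest at 88 (percentile 87.1). The start at 98939711 had none in either. Rara also had 12 shared distal peaks within 10 kb, among them 2 with strength 81 and 124 in both cases, at 1.85 kb before the most upstream start and 1.45 kb before the next. Of the 12, 4 stood in Cdc6, a replication licensing gene.

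Rarb (chr14:16430839-16819156, minus strand) showed a single open promoter. The peak at chr14:16575536-16575685, over the downstream start sites that make the retinoic acid-inducible isoforms, had strength 87 in replicate 1 and 130 in replicate 2 (percentiles 96.6 and 97.8). It stood at the same bases in both libraries. The upstream start sites at 16819005 and 16819156 had no peak within 1 kb and no hotspot in either library. Of the 12 shared distal peaks of Rarb, 7 lay in its own introns and 5 in the intergenic stretch upstream. The 3 strongest were all upstream: an element 354 kb away had 66 and 111 (percentiles 93.0 and 94.1), one at 146 kb had 65 and 104 and one at 143 kb had 36 and 96. The strong pair of peaks 20.6 kb inside the gene, chosen after its values were seen, missed the rule: replicate 1 had peaks of 69 and 57 there, and the replicate 2 peak of 106 fell between them, overlapping the weaker by 30 bp and the stronger not at all.

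Rarg (chr15:102234938-102257517, minus strand), the receptor of skin and cartilage precursors, had the most compact pattern. It had 7 shared promoter peaks and 4 shared distal ones, all within 5 kb of a start. The split depends on where the promoter ends: it was 10 and 1 with a window of 2500 bp, and 4 and 7 with one of 500 bp or with basic transcripts only. The strongest, at chr15:102247036-102247185 and 611 bp before the start at 102246500, had strength 99 and 131 (percentiles 98.4 and 98.0), the highest of the set in replicate 1. The upstream start sites near 102257517 had a top promoter peak of 65 and 102. One hotspot of 4517 bp in replicate 1 and 4235 bp in replicate 2 joined the downstream promoter to the intron before it, so its centre fell more than 1 kb from a start. The 3 strongest distal peaks, at 67 and 107, 59 and 108, and 62 and 92, all ranked above percentile 88.

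**Figure D5:**
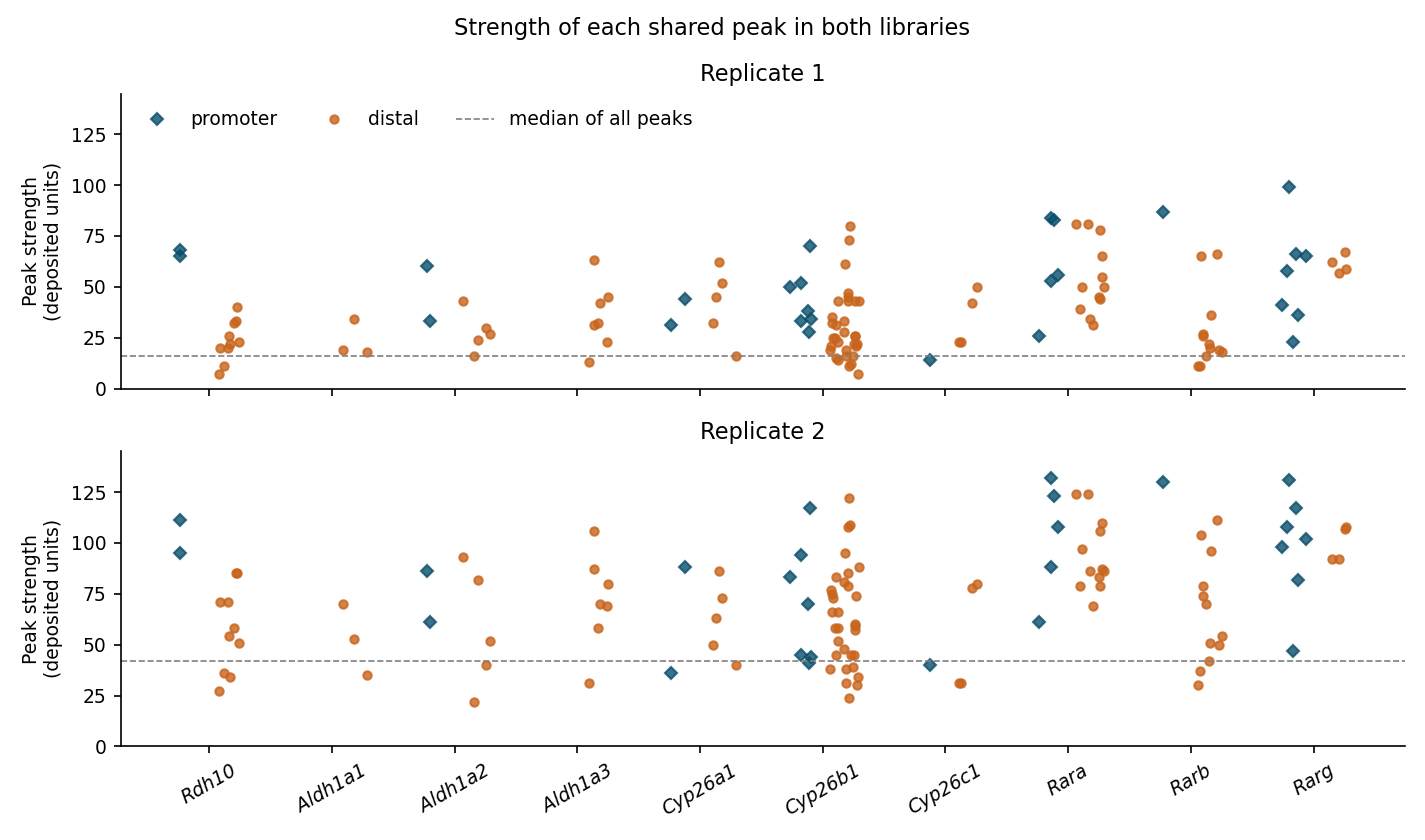
Strength (y axis, deposited units) of each shared peak of the 10 genes in replicate 1 (top) and replicate 2 (bottom), promoter peaks as diamonds and distal peaks as circles, with the median of all peaks of the library dashed at 16 and 42. The promoters of Rara, Rarb and Rarg include the highest values in both libraries, and Aldh1a1 and Aldh1a3 have no promoter point.

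The distal elements of the 10 genes spanned a wide range of distances. Their median distance was 42.5 kb, against 28.0 kb over all shared distal peaks, and 31.9% lay beyond 100 kb against 21.3%. These pooled values rest largely on Cyp26b1, which held 18 of the 30 peaks beyond 100 kb. Rdh10 held 7, Rarb 3 and Aldh1a2 2, and the other genes had none that far. By place, 44 were intronic, 38 intergenic, 7 in coding exons and 5 in untranslated exons, and 34 of the 94 were inside the gene they were assigned to. Their median percentile was 74.6 in replicate 1 and 77.8 in replicate 2, beside 71.3 and 72.9 over all shared distal peaks. The shared promoter peaks had medians of 88.5 and 87.1, beside 91.1 and 91.4 over all. Across the 121 shared peaks the strengths of the libraries had a Pearson r of 0.881 and a Spearman rho of 0.872, beside 0.904 and 0.891 over all shared peaks. These are descriptions over sites that share the same libraries and, in part, the same gene.

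A gene with more genome around it collects more peaks. If the 61871 shared distal peaks were spread evenly, the stretches nearest to the 10 genes would hold 53.5, against the 94 observed, and 8 genes exceeded their own share, beside 44.0% of all genes. Rara had 12 where 1.26 would fall, Rarg 4 where 0.617 would and Cyp26b1 32 where 12.4 would. Rarb had 12 where 17.5 would fall, in a stretch of 745 kb, and Aldh1a1 3 where 5.24 would. The median ratio of observed to even was 2.00 for the 10 genes and 0.743 over all genes.

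The strongest shared distal element of 4 genes, with each role represented, is printed on the plus strand from GRCm38. Capitals mark the motifs searched, on both strands: GCCNNNGGC for AP-2 factors, TAATTA for homeodomain factors and CAGATG for bHLH factors such as Twist. The Cyp26b1 and Aldh1a3 elements held none of these letters and stay in lower case.
Cyp26b1, chr6:84583456-84583605: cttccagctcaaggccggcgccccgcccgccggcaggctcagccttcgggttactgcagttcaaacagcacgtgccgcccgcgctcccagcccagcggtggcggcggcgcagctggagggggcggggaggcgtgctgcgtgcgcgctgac
Aldh1a3, chr7:66450096-66450245: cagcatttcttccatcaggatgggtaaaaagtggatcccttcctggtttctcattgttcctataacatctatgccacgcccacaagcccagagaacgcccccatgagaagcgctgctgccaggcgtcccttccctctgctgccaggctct
Aldh1a2, chr9:71337516-71337665: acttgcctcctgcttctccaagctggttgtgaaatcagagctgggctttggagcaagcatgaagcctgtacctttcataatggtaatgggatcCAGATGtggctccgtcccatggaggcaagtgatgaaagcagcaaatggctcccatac
Rarb, chr14:17172836-17172985: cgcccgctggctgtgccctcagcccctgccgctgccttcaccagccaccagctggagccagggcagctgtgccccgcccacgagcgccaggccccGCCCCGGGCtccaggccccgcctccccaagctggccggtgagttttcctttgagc
The elements differed in base composition: the Cyp26b1 and Rarb elements were 75.3% and 74.7% G or C, and the Aldh1a3 and Aldh1a2 elements 54.7% and 50.7%. CAGATG was in 16 of the 94 distal peaks, beside 18.5% of all shared distal peaks. TAATTA was in 4 of them, beside 3.78%, and GCCNNNGGC in 5, beside 6.16%. In the 27 promoter peaks, which belong to 8 genes, GCCNNNGGC was in 9, beside 16.4% of all shared promoter peaks.

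Other genes of retinoid biology were taken from 4 lists, whose counts are to be read against the 61.6% of all protein-coding genes with a shared promoter peak. The receptor partners and coregulators, such as the RXR genes and the NCOR corepressors, were open in both libraries at all 13 of 13 promoters. Genes known to respond to retinoic acid had a shared promoter peak at 11 of 16, with a median of 11 shared distal peaks, and those without included Hoxb1, Cdx1, Stra8 and Fgf8. Retinoid uptake, storage and binding genes had one at 7 of 11 (63.6%), near that share. Those without included Rbp2, Rpe65 and Ttr, genes of gut, eye and liver. Other retinol, retinal and carotene enzymes had one at 7 of 15. The 8 without were Dhrs9, Rdh1, Adh1, Adh4, Adh7, Bco1, Bco2 and Aldh8a1. Dhrs3, which turns retinal back to retinol, had 3 shared promoter and 12 shared distal peaks.

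How many elements of the 10 genes were found in both libraries was counted last. In replicate 1, 35.3% of their peaks were shared, beside 41.1% of all peaks, and in replicate 2 35.0% beside 38.5%. Rdh10 held 75 of the unmatched peaks of replicate 1, and without it the share was 42.6% in replicate 1 and 35.0% in replicate 2, a split made after the values were seen. The 222 unmatched peaks of replicate 1 had a median strength of 9.5 (percentile 32.7, beside 28.6 over all unmatched peaks of that library). The 219 of replicate 2 had a median of 39 (percentile 45.6, beside 33.6). Of these, 43 and 27 had their centre in a hotspot of the other library, which is 19.4% and 12.3%, beside 19.8% and 14.8% of all unmatched peaks. Hotspots were shared at 42.0% and 40.1%, beside 47.0% and 41.4% of all hotspots.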

How the data were processed

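Peaks and hotspots were called by the authors in each library separately on mm10, per the labels and the files. Aligner and caller: not given in the sources used here. The deposited peak signal (strength) is a whole number per 150 bp peak, and each hotspot has a deposited −log10 q value. Chromosomes 1 to 19 and X were used, and no read totals were used, so depth and its precision are unknown. Peak midpoints were assigned to the nearest start site of a protein-coding transcript in GENCODE M21 (54081 start sites). A peak was shared when 75 bp or more overlapped. Where the plan spoke of all transcripts of protein-coding genes, coding transcripts were used, and all transcripts were added as an alternative. Sequence came from GRCm38.p6, RefSeq. Python with pandas and pyfaidx did the counting, checked on simulated intervals and sequence. The 10 genes and all lists were chosen with earlier results of these data known. Named elements were the strongest promoter peak, the 3 strongest shared distal peaks by mean percentile, shared peaks with a DR5 pair and the widest hotspot, and other named elements were chosen after their values were seen. The AP-2, homeodomain and bHLH motifs, the DR5 search of whole intervals and the 50 kb bins were added after the files were seen. The replicates share a strain and a laboratory, so the spread between them may be partly technical.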

Additional observations from a re-analysis of the deposited data

How the results depend on the processing

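No paired analysis was possible because the series has 1 group. Genes whose promoter carried a shared peak numbered 8, and this count stayed between 6 and 10 under every alternative. It was 9 with any overlap, which adds Aldh1a3, and 6 at 90% overlap. Among the results over the 10 genes together, the following changed by more than 1.5 times, or by more than the spread between the libraries. At 90% overlap the shared distal peaks fell to 22, their median per gene to 2, the shared percentage to 10.5, the pathway genes with a shared promoter peak to 21 (from 38) and the shared peaks with a half-site pair to 0 (from 2). With the 50000 strongest peaks of each library these were 37, 2.5 and 70%, with 0 half-site pairs, and the median percentile was 89.1 (from 77.3). Without 1 replicate, all peaks of the other counted: 294 to 297 distal peaks, a median of 20 to 20.5, 2 to 7 peaks with a half-site pair and a median percentile of 49.3 to 53.5. The shared percentage (35.3) was 43.1 with any overlap, 42.0 for hotspots, 32.4 within 100 kb of a start site, 34.0 with all transcripts (chosen after seeing the data) and 35.0 from replicate 2. The median percentile was 74.8 with any overlap, 79.8 within 100 kb and 64.9 for hotspots. With half-sites AGGTCA and AGTTCA only, 1 peak held a pair. Counts for single genes were less stable: 86 of 240 moved by more than 1.5 times. Of 20 such counts, 16 and 17 did so with 1 replicate left out, 15 at 90% overlap, 12 with the 50000 strongest peaks, 6 for hotspots, 5 with each other promoter window, 4 with any overlap, and 3 each with basic transcripts only and within 100 kb. Among them the distal count of Rdh10 went from 10 to 3 within 100 kb and that of Cyp26a1 from 5 to 9 with basic transcripts. The causes of these changes were not tested. Read depth is unknown, so an absent peak may be one that was not detectable.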

Other observations

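The stretch of weak peaks below Rdh10 had a smaller and far more common counterpart at Aldh1a3. The densest 50 kb of Aldh1a3 in replicate 1, from 65.3 to 97.3 kb upstream, held 20 peaks with a median strength of 7.5, 1 of them shared, and replicate 2 had 5 there. Of the 42751 bins, 1680 held 20 or more replicate 1 peaks, and 693 of them had 5 or fewer in replicate 2. The densest 50 kb of Rara in replicate 2 held 45 peaks, and 17 of the 42751 fixed bins of 50 kb held as many or more. Replicate 1 had 33 there, and 17 of the replicate 2 peaks were shared. At Cyp26b1 the densest 50 kb held 25 peaks in replicate 1 and 29 in replicate 2, and 1124 and 131 bins held as many or more. Each densest window was placed by its count while the bins were fixed. The bin numbers may therefore understate how common such density is.

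A peak can be listed more than once at the same bases: 62 such rows stood in replicate 1 and 23 in replicate 2, of which 1, in replicate 1, was nearest to Rdh10.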
